A study of Mus musculus with 12 samples.

Results

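Transcripts of 10 genes for receptors of extracellular nucleotides, 6 of the P2X family (P2rx2, P2rx3, P2rx4, P2rx5, P2rx6 and P2rx7) and 4 of the P2Y family (P2ry1, P2ry2, P2ry12 and P2ry14), were followed in dorsal root ganglia (DRG) of adult mice after loss of Prdm12. The genes were listed by name from the receptor families, with earlier results of these data known, and 6 further P2 receptor genes are given apart. All 10 were found among the 55416 genes of the count tables. Polyadenylated RNA of 12 samples was sequenced, 6 labelled iKO (inducible knockout) and 6 labelled control. Prdm12 encodes a zinc finger protein that pain-sensing neurons need in order to form in the embryo, and the design asks what its removal does in the adult ganglion, 1 month after tamoxifen injection.

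All mice were of strain C57Bl6. The 6 iKO samples had the genotype Rosa26Cre ERT2; Fl/Fl, a tamoxifen-activated Cre recombinase at the widely expressed Rosa26 locus with both Prdm12 alleles floxed, and received tamoxifen. Control 1 was Rosa26Cre ERT2; Fl/+, controls 2 and 3 were +/+; Fl/+ without Cre, and control 4 was Rosa26Cre ERT2; +/+, and these 4 also received tamoxifen. Controls 5 and 6 had the iKO genotype and received corn oil instead. Females gave controls 1 and 2 and iKO 1 to 3, and males the other 7 samples. The Rosa26 driver is not restricted to neurons, so recombination is not limited to 1 cell type of the ganglion. Whether each sample came from a single animal or a pool is not stated, so a p-value here reflects only how these 12 samples vary.

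P2X receptors are ATP-gated cation channels built of 3 subunits, which may be of the same or of different kinds. In sensory ganglia they are best known for P2X3, the channel through which ATP released from damaged or stretched tissue excites small nociceptors, alone or together with P2X2, whose presence makes the current desensitize more slowly. P2Y receptors are G protein-coupled and respond to ADP, ATP, UTP or nucleotide sugars. Released ATP is broken down outside the cell to adenosine, which has receptors of its own.

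The P2X subunits are related in sequence, and how much coding sequence they share bears on whether counts of one could come from another. Between any pair of the 10 genes, the longest identical run of coding bases was 26, between P2rx2 and P2rx3, which is shown here beside the corresponding stretch of the other P2X genes because the levels of these 2 genes are compared with each other. It was read from the longest complete coding transcript of each gene in GENCODE vM21 (build GRCm38, sense strand, 5′ to 3′), and capitals mark bases identical to P2rx3.
P2rx2: GGCTACAACTTCAGGTTTGCCAAATA
P2rx3: GGCTACAACTTCAGGTTTGCCAAATA
P2rx4: GGCTACAAtTTCAGGTTTGCCAAgTA
P2rx5: GGgTAtAACTTCAGGTTTGCCAggTA
P2rx6: GGgTACAACTTCAGGacaGCCAAtcA
P2rx7: GGCTACAACTTCAGaTaTGCCAAgTA
The stretch covers coding bases 931 to 956 of P2rx2 (of 1491) and 829 to 854 of P2rx3 (of 1191), counted from the A of the start codon. P2rx4 matched P2rx3 at 24 of the 26 bases, P2rx7 at 23, P2rx5 at 22 and P2rx6 at 20. The next longest identical run of any pair was 20 bases, between P2rx4 and P2rx5. The 2 genes lie on different chromosomes, P2rx2 on chromosome 5 and P2rx3 on chromosome 2. A read that extends past this stretch on either side meets a base that differs between them.

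Totals ran from 13943784 to 20377766 counts per sample. Prdm12 was 117 ± 29.4 CPM (counts scaled to a common library size) in controls and 23.3 ± 2.51 CPM in iKO samples (SD, n = 6 each), a log2 fold change of -2.33 ± 0.18 (SE, adjusted p = 8.59e-05, edgeR quasi-likelihood with Benjamini-Hochberg adjustment), with no overlap between the groups. Control 6 was the lowest control at 64.6 CPM. All 11 sensory neuron markers had group means of at least 131 CPM, and their summed level was 12400 to 14700 CPM in controls and 11100 to 14900 CPM in iKO samples. The sample iKO 1 stood apart in its non-neuronal genes. Its summed level of 7 endothelial markers was 209 CPM against at most 128 CPM in any control, and that of 11 macrophage markers was 396 CPM against at most 265 CPM.

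None of the 10 receptor genes changed in iKO ganglia at an adjusted p under 0.05 (0 of 10, edgeR quasi-likelihood test, Benjamini-Hochberg adjustment over all genes), where 155 of the 16384 genes tested, or 0.946%, were called. The largest difference was that of P2rx2, whose mean level was 4.05 CPM in iKO samples against 6.24 CPM in controls. P2rx3, the most abundant of the 10, was at 303 CPM in controls and 324 CPM in iKO samples. All 10 genes passed the filter on low counts. DESeq2 and limma-voom also called 0 of the 10. At an unadjusted p under 0.05 there was 1 of the 10, P2rx2, against 9.52% of all genes. The iKO and control values overlapped for all 10, whereas they did not overlap for 1.54% of all genes. The median log2 fold change was 0.03 over the 10 genes and 0.00 over all genes tested, and 4 of the 10 were negative.

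**Figure D1:**
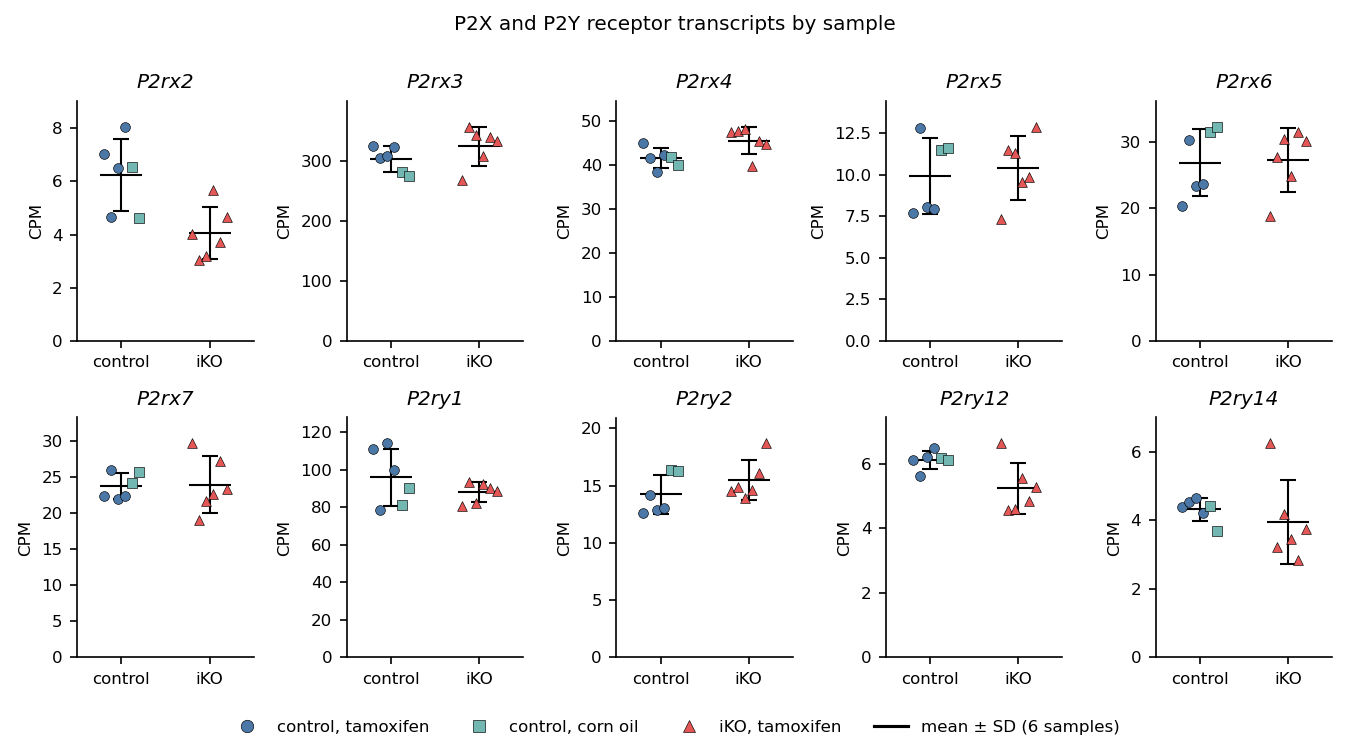
Transcript level of each receptor gene in CPM (vertical axis, from 0) in the 12 samples, with blue circles for controls given tamoxifen, green squares for controls given corn oil, red triangles for iKO samples, and lines for the mean ± SD of 6 samples. The groups overlap in every panel, and in P2rx2 the 6 iKO samples lie between 3.05 and 5.67 CPM and the controls between 4.63 and 8.06 CPM.

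P2rx2 encodes the subunit that joins P2X3 in slowly desensitizing channels. It measured 7.05, 4.68, 6.49, 8.06, 6.54 and 4.63 CPM in controls 1 to 6. In iKO 1 to 6 it measured 4.01, 3.05, 3.19, 5.67, 3.71 and 4.67 CPM. All 6 iKO values lay under the control median of 6.52 CPM, but iKO 4 exceeded controls 2 and 6, and iKO 6 exceeded control 6 and was close to control 2. The means were 6.24 ± 1.35 and 4.05 ± 0.985 CPM (SD, n = 6 each), a log2 fold change of -0.59 ± 0.17 (SE) with a 95% confidence interval of -0.94 to -0.23. The unadjusted p was 0.00316 and the adjusted p 0.166, edgeR quasi-likelihood with Benjamini-Hochberg adjustment, so the difference was not called. With no filter on low counts the adjusted p was 0.0465 by the same test, the only one of 23 alternatives for this comparison that called it. Over the alternatives the log2 fold change ran from -0.69 to -0.40 and the adjusted p from 0.0465 to 0.718. Counts of 55 to 117 per sample lay behind these values. In whole ganglia, fewer cells that carry a transcript and less of it per cell cannot be told apart.

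P2rx3 encodes the subunit of the nociceptor channel itself. It measured 325, 304, 308, 323, 281 and 274 CPM in controls 1 to 6. In iKO 1 to 6 it measured 267, 356, 342, 307, 340 and 333 CPM. Among iKO samples 5 of 6 lay above the control median of 306 CPM, and iKO 1 was the lowest of all 12. The log2 fold change was 0.09 ± 0.08 (SE, 95% confidence interval -0.07 to 0.26, adjusted p = 0.729, edgeR quasi-likelihood with Benjamini-Hochberg adjustment). As a ratio, the 95% confidence interval was 0.953 to 1.2 times the control level. Without iKO 1 the log2 fold change was 0.15 and also not called. The 2 lowest controls were the 2 given corn oil, and against these the log2 fold change was 0.23 ± 0.11 (SE, unadjusted p = 0.0508), compared with 0.04 ± 0.08 against the tamoxifen-injected controls.

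P2rx4 encodes a subunit found widely in neurons and immune cells. Its lowest, median and highest values were 38.4, 41.7 and 45 CPM in controls and 39.7, 46.4 and 48.1 CPM in iKO samples. The iKO samples 1, 2, 3 and 5 were above all 6 controls, iKO 6 lay just under control 1, the highest control, and iKO 4 was below 5 of the controls. This gave a log2 fold change of 0.11 ± 0.05 (SE, 95% confidence interval -0.001 to 0.22, unadjusted p = 0.0512, adjusted p = 0.526, edgeR quasi-likelihood with Benjamini-Hochberg adjustment). The P2rx7 product, a channel of macrophages and satellite glia that opens at high ATP, had 21.9, 23.3 and 26 CPM in controls. In iKO samples it had 19, 23 and 29.7 CPM, wider on both sides, with iKO 1 the highest. Its log2 fold change was 0.01 ± 0.10 (SE, 95% confidence interval -0.20 to 0.23).

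P2rx5 and P2rx6 encode subunits that give small currents on their own and are mostly studied as partners of other subunits. P2rx5 ranged from 7.68 to 12.8 CPM in controls and from 7.32 to 12.9 CPM in iKO samples, with medians of 9.78 and 10.6 CPM. P2rx6 ranged from 20.4 to 32.3 CPM in controls and from 18.8 to 31.5 CPM in iKO samples, with medians of 26.9 and 29.0 CPM. For both genes controls 1, 3 and 4 and iKO 1 were low, and controls 2, 5 and 6 were high, so the spread lay within groups. The coefficient of variation was 23% for P2rx5 and 18.8% for P2rx6 in controls, against 6.98% for P2rx3. The log2 fold changes were 0.07 ± 0.16 and 0.04 ± 0.14 (SE). The 95% confidence interval was -0.28 to 0.43 for P2rx5 and -0.26 to 0.35 for P2rx6.

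Among the P2Y genes, P2ry1 encodes the Gq-coupled ADP receptor described in sensory neurons. Its lowest, median and highest values were 78.7, 95.1 and 114 CPM in controls and 80.6, 89.4 and 93.1 CPM in iKO samples. All 6 iKO samples were under the control median, but controls 2 and 5 were as low as the lowest iKO samples. This gave a log2 fold change of -0.11 ± 0.09 (SE, adjusted p = 0.725, edgeR quasi-likelihood with Benjamini-Hochberg adjustment), which was -0.017 without control 1 and -0.061 without control 3, the 2 highest samples. P2ry2, the gene of the ATP and UTP receptor that signals through Gq, had 12.6, 13.6 and 16.4 CPM in controls and 13.9, 14.7 and 18.7 CPM in iKO samples. All 6 iKO samples were above the control median, with the corn-oil controls 5 and 6 above 5 of the 6 iKO samples. This gave a log2 fold change of 0.14 ± 0.09 (SE, adjusted p = 0.641 by the same edgeR test), and 0.086 without iKO 6.

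P2ry12, the Gi-coupled ADP receptor of microglia and platelets, also reported in satellite glia, had 5.60, 6.14 and 6.48 CPM in controls. In iKO samples it had 4.55, 5.06 and 6.63 CPM, with 5 of 6 below every control and iKO 1 above all of them. This gave a log2 fold change of -0.21 ± 0.11 (SE, adjusted p = 0.577, edgeR quasi-likelihood with Benjamini-Hochberg adjustment), and -0.29 without iKO 1, still not called. P2ry14, the Gi-coupled receptor of UDP-sugars, had 3.70, 4.42 and 4.66 CPM in controls and 2.83, 3.60 and 6.25 CPM in iKO samples. Again iKO 1 was the highest of all 12 and the other 5 iKO samples lay under the control median. Its log2 fold change was -0.19 ± 0.16 (SE), and -0.31 without iKO 1, -0.115 without iKO 2 and -0.097 without iKO 5, not called. Counts for these 2 genes were 45 to 124 per sample. The macrophage and endothelial markers of iKO 1, given above, were high in the same sample. In iKO 2 to 6, where both genes lay under their control medians, the summed endothelial markers were 88.2 to 98 CPM, below all controls (109 to 128 CPM). Summed fibroblast and mural markers were 1280 to 1460 CPM in these 5 samples and 1370 to 1870 CPM in controls, and platelet and erythroid markers 73.7 to 149 and 121 to 240 CPM. The part of these markers in the values of P2ry12 and P2ry14 was not tested.

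Libraries did not record strand, so overlapping genes on opposite strands cannot be separated. P2ry1 shares 23.1% of its exon bases with Gm37035, which had 1.9 CPM, and P2rx6 shares 13.9% with Slc7a4, which had 17.7 CPM. P2rx3 shares 1.83% with Ssrp1 and P2rx7 1.99% with the microRNA gene Mir8115 on its own strand. P2ry12 and P2ry14 lie within the span of Med12l on the opposite strand, and P2ry12 shares 0.353% of its exon bases with that gene. Med12l had 51.4 CPM, well above both receptor genes, and its part in their counts was not tested. For the other 4 receptor genes no shared exon bases were found.

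When counts were divided by exon length to compare genes, P2rx3 stood at 112 ± 10.2 CPM per kb over the 12 samples (SD), 5.25 times the level of P2ry1 at 21.4 ± 2.64 CPM per kb. P2rx6 at 6.78 and P2rx4 at 6.19 CPM per kb came next and were not separable, since P2rx6 was the higher in 9 of 12 samples. P2rx5 at 4.25, P2rx7 at 4.00 and P2ry2 at 3.78 CPM per kb followed and were likewise not ordered beyond their spread, with 7 and 9 of 12 samples in that order. P2ry12 at 2.23 and P2rx2 at 2.00 CPM per kb did not separate either (7 of 12). P2ry14 was the lowest at 0.374 CPM per kb. The steps from P2rx3 to P2ry1, P2ry1 to P2rx6, P2rx4 to P2rx5, P2ry2 to P2ry12 and P2rx2 to P2ry14 held in 12 of 12 samples. The order depends on the length used, which joins all exons of a gene whichever transcripts are expressed. By CPM alone P2rx4 (38.4 to 48.1) was above P2rx6 (18.8 to 32.3), and P2ry14 (2.83 to 6.25) overlapped P2rx2 (3.05 to 8.06).

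Since P2X channels assemble from several subunits, the make-up of the summed P2X level (CPM per kb) was compared as well. P2rx3 made up 82.3 ± 2.17% of it in controls and 83.3 ± 0.944% in iKO samples (SD, n = 6 each, exact 2-sided permutation p = 0.331). The share of P2rx2 was 1.84 ± 0.353% in controls and 1.15 ± 0.337% in iKO samples (exact permutation p = 0.0108, adjusted 0.0379 over the 7 P2X values computed). The adjusted p of this share was 0.0833 without the 2 corn-oil controls and 0.152 without P2rx3 in the sum, and it was under 0.05 in 3 of the 12 runs that left out 1 sample (exact permutation tests). P2rx4 held 4.49 and 4.68%, P2rx6 5.15 and 4.86%, P2rx5 3.17 and 3.11%, and P2rx7 3.03 and 2.93% of the level in controls and iKO samples, with exact permutation p-values of 0.582 to 0.844. The shares depend on the division by length. Without it P2rx3 held 73.6 and 74.4% and P2rx4 10.1 and 10.5% in controls and iKO samples. The P2rx2 share was then 1.51 and 0.944%, with the same adjusted permutation p of 0.0379.

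The ratio of P2rx3 to P2rx2 on this scale was 42.6, 60.0, 43.7, 37.0, 39.7 and 54.6 in controls 1 to 6. It was 61.4, 108, 98.9, 50, 84.5 and 65.7 in iKO 1 to 6. The iKO ratio was above every control in 5 of 6 samples, and iKO 4 lay within the control range. In log2 the means were 5.51 ± 0.27 and 6.23 ± 0.43 (SD, n = 6 each), a difference of 0.72 with an exact 2-sided permutation p of 0.00866 and an adjusted p of 0.0379 over the 7 P2X values computed (the smallest p this design can give is 0.00216). The ratio and the P2rx2 share rest on the same P2rx2 counts as the gene test above, so neither is separate evidence. Unlike the gene test, the permutation took no account of sex. P2rx2 had a log2 fold change of 0.30 ± 0.17 (SE) in males against females, and the part of sex in the ratio was not tested. Without the 2 corn-oil controls the difference was 0.74 with an adjusted permutation p of 0.0833. Leaving out any of controls 1, 3, 4 and 5 or of iKO 1, 2, 3, 5 and 6 also moved the adjusted p above 0.05.

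**Figure D2:**
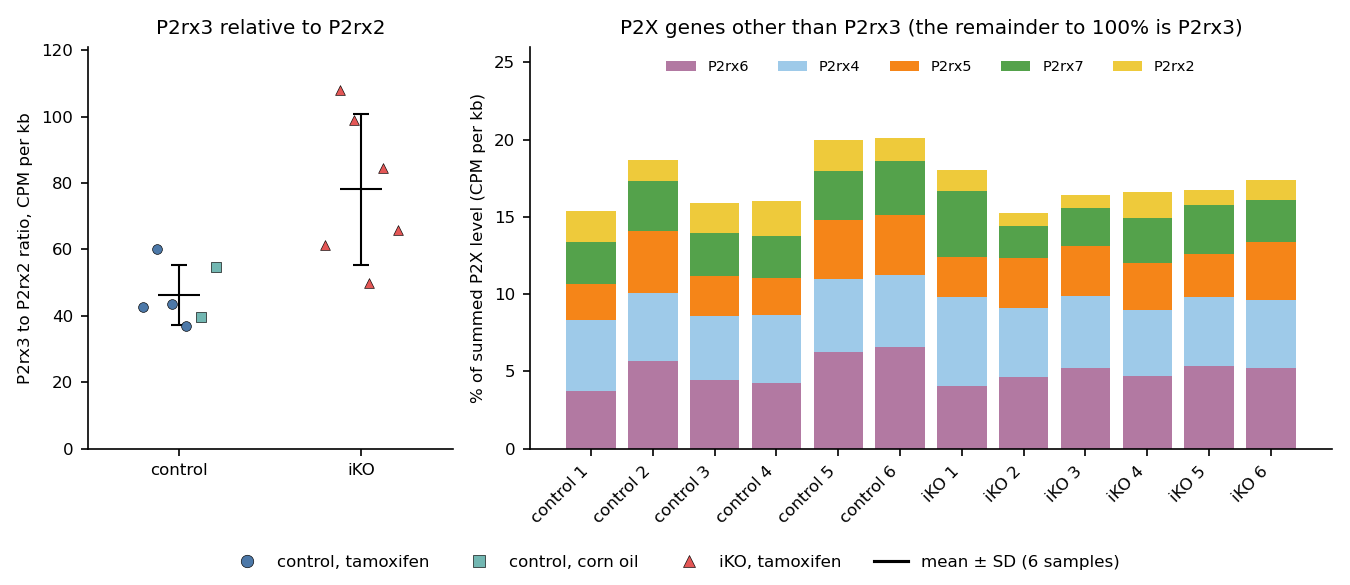
Left, ratio of P2rx3 to P2rx2 in CPM per kb by sample, with symbols for control and iKO samples and lines for the mean ± SD of 6 samples; right, percent of the summed P2X level held by the 5 P2X genes other than P2rx3 in each sample. The iKO ratio lies between 50 and 108 and the control ratio between 37.0 and 60.0, and the yellow P2rx2 segment is the thinnest in iKO 2, at 0.788%.

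The controls were of 2 kinds, and the receptors were also set against each kind in a fit of 3 groups over all 12 samples. Against the 4 tamoxifen-injected controls, 0 of 10 were called (1.35% of all genes were). At an unadjusted p under 0.05 there were 3 of 10, P2rx2, P2ry1 and P2ry2, against 17% of all genes. P2rx2 was at 6.57 ± 1.42 CPM in these controls, a log2 fold change of -0.70 ± 0.17 (SE, adjusted p = 0.0626, edgeR quasi-likelihood with Benjamini-Hochberg adjustment). This difference of P2rx2 was called without iKO 1 (adjusted p = 0.0127), without iKO 4 (0.0384) and with no filter on low counts (0.00238) by the same edgeR test, and in 0 of the other 11 alternatives. P2ry2 was at 13.2 ± 0.713 CPM (log2 fold change 0.23 ± 0.09 SE) and P2ry1 at 101 ± 15.8 CPM (-0.20 ± 0.09 SE). Against the 2 corn-oil controls, which have the iKO genotype, 0 of 10 were called (0.146% of all genes were) and 0 of 10 had an unadjusted p under 0.05 by edgeR's quasi-likelihood test, against 5.3% of all genes. The log2 fold change of P2rx2 was -0.28 ± 0.23 (SE). For P2ry1, P2ry2, P2rx5, P2rx6 and P2rx7 the sign differed between the 2 kinds of control, with a log2 fold change between -0.20 and 0.10 against corn oil. The 2 comparisons share the iKO samples, the corn-oil controls are all male, and the difference between the 2 kinds of control was not tested.

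**Figure D3:**
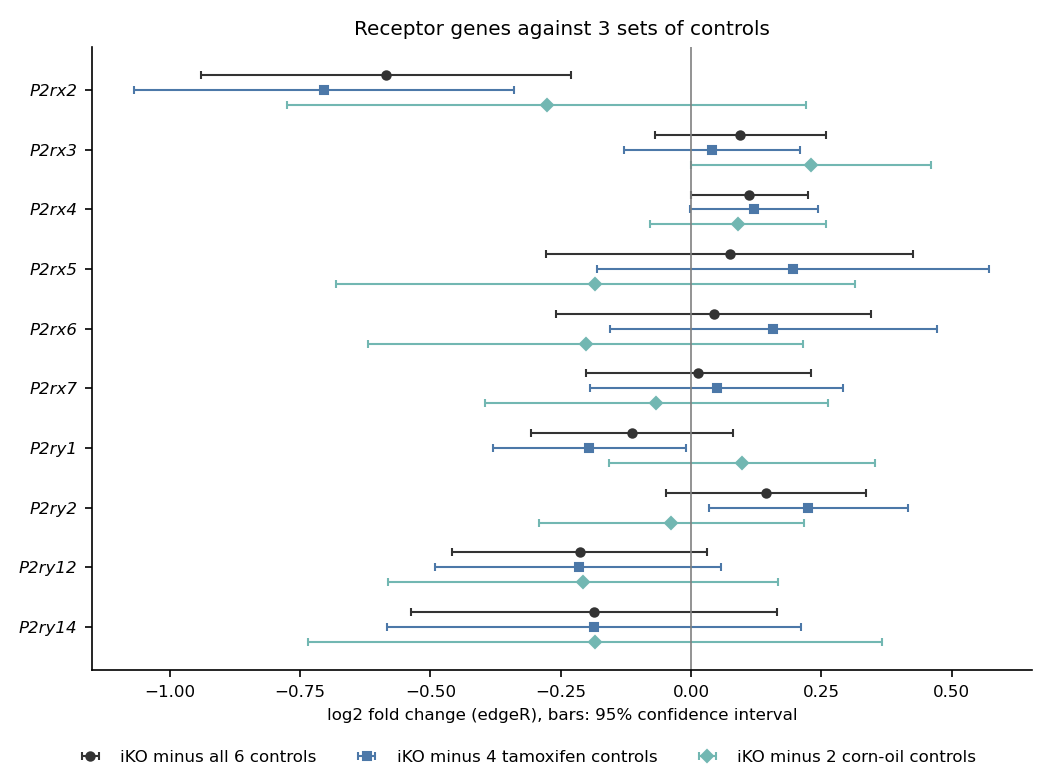
Log2 fold change of each receptor gene (horizontal axis) with its 95% confidence interval, for iKO samples against all 6 controls (black circles), the 4 tamoxifen-injected controls (blue squares) and the 2 corn-oil controls (green diamonds). P2rx2 is at -0.59, -0.70 and -0.28, and for the other 9 genes the interval against all 6 controls includes 0.

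Between the sexes 0 of 10 receptor genes were called (0.0549% of all genes were), and 1 of 10 had an unadjusted p under 0.05, against 4.11% of all genes. This was P2rx4, at 41.8 ± 2.61 CPM in the 7 males and 45.9 ± 2.7 CPM in the 5 females, a log2 fold change of -0.12 ± 0.05 (SE, adjusted p = 0.904, edgeR quasi-likelihood with Benjamini-Hochberg adjustment). The difference between iKO and control was not called as differing between the sexes for any of the 10, nor for any other gene (0%), by edgeR's quasi-likelihood test. At an unadjusted p under 0.05 there were 0 of 10, against 3.59% of all genes. The interaction of P2rx2 was 0.33 ± 0.34 (SE, log2).

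The other genes of nucleotide signalling were counted from lists by role. Of 6 further P2 receptor genes only P2ry6 and P2ry13 passed the filter, at 2.80 ± 0.434 and 1.53 ± 0.502 CPM in controls, and neither was called or had an unadjusted p under 0.05 (log2 fold changes 0.01 and 0.18). Of 8 genes for ATP release channels and transporters 7 were tested and 0 called, also 0 at an unadjusted p under 0.05 by the same edgeR test, with the smallest p for Calhm2 (log2 fold change 0.41 ± 0.21 SE). Of 15 genes for signalling below the receptors, all tested, 0 were called and 2 had an unadjusted p under 0.05, against 9.52% of all genes, with the smallest p for the caspase gene Casp1 (-0.32 ± 0.12 SE). Their median log2 fold changes were 0.09, 0.05 and -0.04, against 0.00 over all genes.

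The steps after ATP did include genes that fell. Of 11 genes for enzymes that break down extracellular nucleotides, 10 were tested and 1 was called (0.946% of all genes were), Nt5e, which encodes CD73, the enzyme that turns AMP into adenosine. It measured 105, 88.6, 102, 113, 85.9 and 82.7 CPM in controls 1 to 6 and 61.7, 66.1, 60.3, 77.2, 64.2 and 68.4 CPM in iKO 1 to 6. Every iKO sample was under every control. Nt5e fell from 96.2 ± 12.2 to 66.3 ± 6.08 CPM, a log2 fold change of -0.53 ± 0.08 (SE, adjusted p = 0.00587, edgeR quasi-likelihood with Benjamini-Hochberg adjustment). Acpp, which encodes prostatic acid phosphatase, another enzyme that makes adenosine from AMP in nociceptors, was at 779 ± 92.9 and 625 ± 53.4 CPM. Its ranges of 667 to 885 and 523 to 665 CPM did not overlap, as for 1.54% of all genes, but it was not called (-0.31 ± 0.09 SE, adjusted p = 0.164 by the same edgeR test). For both genes the 2 corn-oil controls, which have the iKO genotype, were the lowest controls. Controls 5 and 6 were at 85.9 and 82.7 CPM for Nt5e and at 708 and 667 CPM for Acpp. Neither gene is given here against each kind of control. The list's median was -0.02.

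Of 4 adenosine receptor genes 3 were tested and 1 was called (0.946% of all genes were), Adora2b, the Gs-coupled receptor of low affinity. It measured 6.42, 5.2, 5.78, 5.93, 5.52 and 4.63 CPM in controls 1 to 6 and 3.31, 2.72, 3.94, 3.04, 4.53 and 3.01 CPM in iKO 1 to 6. The groups did not overlap, as for 1.54% of all genes, with iKO 5 closest to control 6. Counts of 49 to 102 per sample lay behind these values. Adora2b fell from 5.58 ± 0.619 to 3.43 ± 0.681 CPM, a log2 fold change of -0.70 ± 0.14 (SE, adjusted p = 0.03, edgeR quasi-likelihood with Benjamini-Hochberg adjustment). That call was lost when any of controls 1 to 4 or of iKO 2, 4 and 6 was left out, with adjusted p-values of up to 0.142. Adora1, the most abundant of the 4 by CPM, was at 96.8 and 97.3 CPM. Of 6 genes for uptake and conversion of adenosine 5 were tested and 0 called. At an unadjusted p under 0.05 there were 2 of the 5, against 9.52% of all genes. The smallest p was that of Adk, adenosine kinase (304 ± 32.8 and 256 ± 13.5 CPM, log2 fold change -0.25 ± 0.08 SE, adjusted p = 0.199 by the same edgeR test).

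**Figure D4:**
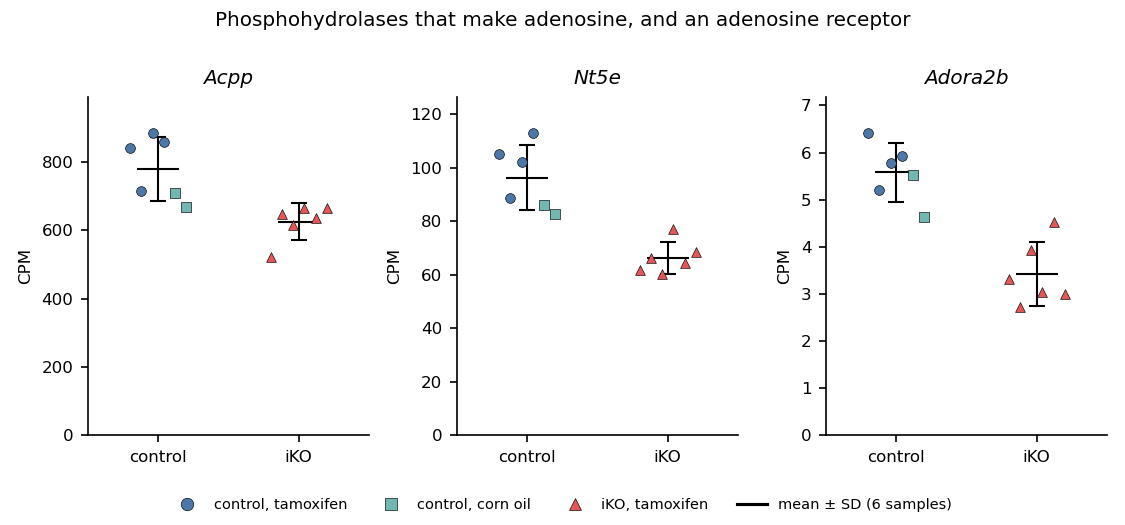
Transcript level in CPM (vertical axis, from 0) of Acpp, Nt5e and Adora2b by sample, with symbols for tamoxifen controls, corn-oil controls and iKO samples and lines for the mean ± SD of 6 samples. In all 3 panels every iKO sample lies below every control, with Nt5e between 60.3 and 77.2 CPM against 82.7 to 113 CPM.

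Receptor levels were set beside cell type markers, since the 10 genes are expressed in different cells of the ganglion. Over all 12 marker lists, of 4 to 11 tested genes each, 1 gene was called, where 0.946% of all genes were. This was Ntrk3 of large-diameter neurons, which rose from 467 ± 48.7 to 689 ± 118 CPM (log2 fold change 0.58 ± 0.11 SE, adjusted p = 0.0228, edgeR quasi-likelihood with Benjamini-Hochberg adjustment). The rest of that list did not share the rise, with log2 fold changes from -0.16 (Pvalb) to 0.08 (Ntrk2) and a list median of 0.03. In the nonpeptidergic nociceptor list, whose neurons carry P2X3, the median log2 fold change was -0.14 and the gene with the smallest p was Cd55 (-0.33), and in the peptidergic list the median was -0.04, with none called in either. Among the other neuronal and glial lists, the genes of smallest p included Uchl1 (0.13) of sensory neurons and Pou3f1 (0.61) of satellite glia. The medians of these lists were 0.05 and 0.01, and 3 of the 8 satellite glia genes were negative. Pou3f1, at 2.24 CPM in controls and 3.40 CPM in iKO samples, thus does not stand for its list. Further lists gave Gad1 (0.40) of spinal cord and microglia, Tek (-0.20) of endothelium, Rgs5 (-0.25) of fibroblasts and mural cells, Myh4 (-1.05) of skeletal muscle and Hbb-bt (-0.90) of platelets and erythroid cells. Summed skeletal muscle markers ran from 21.1 to 480 CPM in controls and from 18.8 to 106 CPM in iKO samples, and their part in any value here was not tested.

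Across the 12 samples, 120 relations between a receptor gene and the mean log2 CPM of a marker list were computed, and 2 of the 3 with an adjusted permutation p under 0.05 joined P2rx6 and P2rx5 to the 6 large-diameter neuron markers. For P2rx6 Pearson's r was 0.97 (permutation p = 3e-05, adjusted 0.0036) and Spearman's rho 0.85 (p = 0.00091, adjusted 0.0702). For P2rx5 r was 0.92 (permutation p = 0.00019, adjusted 0.0114) and rho 0.84 (p = 0.00117, adjusted 0.0702). Without the 2 samples farthest from the median, iKO 1 and control 1, r was 0.94 for P2rx6 and 0.85 for P2rx5. For P2rx6 r was 0.98 within the 6 controls (exact permutation p = 0.00833) and 0.98 within the 6 iKO samples (exact permutation p = 0.0111). For P2rx5 r was 0.92 in both (exact permutation p = 0.0625 in controls and 0.0111 in iKO samples). By rank the values were lower for P2rx6 in iKO samples, with rho = 0.71 (exact permutation p = 0.136), against 0.94 in controls (exact permutation p = 0.0167). For P2rx5 rho was 0.83 in both groups (exact permutation p = 0.0583 each). Inside the groups, high values for P2rx6 and P2rx5 also came with other lists. With the myelinating Schwann markers r was 0.93 and 0.87 in controls, but -0.60 and -0.46 in iKO samples. With the nonpeptidergic nociceptor markers r was -0.91 and -0.93 in controls, but 0.90 and 0.84 in iKO samples. What the shared variation between samples reflects was not tested.

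The third relation was that of P2rx3 with the endothelial markers, but in that list the samples formed separate sets. The mean log2 CPM was 3.60 to 3.72 in iKO 2 to 6, 3.89 to 4.10 in controls and 4.78 in iKO 1, so no pooled value is given. Within the 6 controls r was -0.72 (exact permutation p = 0.122) and rho -0.77 (exact permutation p = 0.103). Within the 6 iKO samples r was -0.84 (exact permutation p = 0.156) and rho -0.03 (exact permutation p = 1), where iKO 1 alone lay far from the rest. Against the nonpeptidergic nociceptor markers P2rx3 had r = 0.60 (permutation p = 0.0384, adjusted 0.139), and rho = 0.55 (permutation p = 0.0667, adjusted 0.334), and 0.41 for r without iKO 1 and control 4, the 2 samples farthest from the median. The relation was closer inside each group, with r = 0.85 in controls (exact permutation p = 0.0403, rho = 0.77 with p = 0.103) and r = 0.98 in iKO samples (exact permutation p = 0.00278, rho = 0.94 with p = 0.0167). Such values were not particular to this list. Against the large-diameter neuron markers P2rx3 had r = -0.94 in controls (exact permutation p = 0.00139). In iKO samples r was 0.95 (exact permutation p = 0.0306, rho = 0.49 with p = 0.356). These p-values inside the groups are not adjusted. For P2rx2 the strongest relation of the 12 by r was with the peptidergic markers (r = 0.62, permutation p = 0.0258, adjusted 0.119, and rho = 0.74, permutation p = 0.00799, adjusted 0.137), and r without the same 2 samples was 0.60. Within controls r was 0.88 (exact permutation p = 0.00833) and rho 0.83 (exact permutation p = 0.0583), whereas within iKO samples both were 0.26 (exact permutation p = 0.64 and 0.658). Within controls r was also 0.89 with the nonpeptidergic markers (exact permutation p = 0.00833) and -0.88 with the endothelial markers (exact permutation p = 0.0125). Within iKO samples these were -0.34 and -0.04 (exact permutation p = 0.526 and 0.907). These p-values are not adjusted either, and the difference between the groups was not tested.

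**Figure D5:**
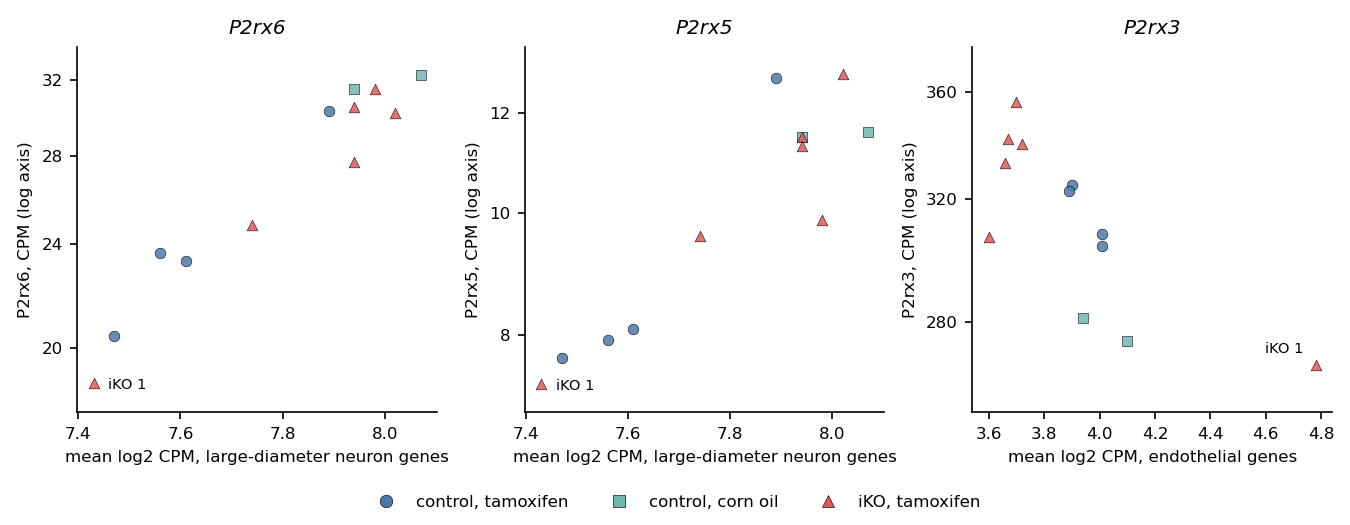
Level of P2rx6 and P2rx5 against the mean log2 CPM of 6 large-diameter neuron markers, and of P2rx3 against that of 7 endothelial markers (vertical axes in CPM on a log scale), 1 point per sample with symbols for tamoxifen controls, corn-oil controls and iKO samples. P2rx6 and P2rx5 rise along the axis in both groups (r = 0.97 and 0.92 over all 12 samples), and in the P2rx3 panel iKO 1 stands alone at 4.78.

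The genes whose levels varied most like each receptor after removal of group and sex differences were named by the highest Pearson r over the 12 samples, among 13885 genes with a mean log2 CPM of at least 1. For P2rx3 they were Scn11a (r = 0.97), the sodium channel gene of nociceptors that was also in the nonpeptidergic list, Kcnd3 (0.96), a potassium channel gene, and Vps8 (0.96). For P2rx6 they were Lgi3 (0.99), Atp11a (0.98) and Heatr5a (0.98), and for P2rx5 Pctp, Kndc1 and Stk24 (0.98 each). For P2rx2 they were Dtd1 (0.96), Bzw2 (0.94) and Rbm17 (0.93). P2rx4 was closest to Zdhhc24 (0.96), P2rx7 to Nusap1 (0.96), P2ry1 to Cbr3 (0.95), P2ry2 to Prrg3 (0.97), P2ry12 to the ribosomal protein gene Rps18 (0.98) and P2ry14 to H2-K2 (0.96). The next in line were Stat5b (0.92) for P2rx4 beside a gene with no name here (0.94), Smpd2 (0.94) and Kcnk5 (0.93) for P2rx7, Moxd1 (0.94) and Unc5d (0.93) for P2ry1, and Car2 and Insrr (0.89 each) for P2ry2. For P2ry12 they were Fis1 and Pmf1 (0.98 each), and for P2ry14 Vgll3 (0.94) and Ldlrad3 (0.93). These are the highest of many values and are given as a description. Without iKO 1 the closest gene of each of the 10 receptors had an r of 0.92 to 0.98.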

How the data were processed

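The authors deposited 1 table of raw, unnormalized counts for each sample. STAR 2.7.8a, featureCounts 2.0.1 and bcl2fastq 2.20.0.422 and build GRCm39 are named for them, per the submitters' processing notes. Libraries did not record strand, per the labels' protocols. The annotation release and how multiply mapped or overlapping reads were counted is not given in the sources used here. Names, exon lengths, overlaps and coding sequences came from GENCODE vM21 (GRCm38) by matching gene identifiers, which named 52083 of 55416 genes (94%, holding 99.67% of counts). Because the builds differ, lengths are approximate and no positions are given.

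After edgeR's filterByExpr, which kept 16384 genes, library sizes were scaled by TMM (trimmed mean of M-values). They were tested with edgeR 4.0.16 (R 4.3.3, quasi-likelihood, robust, sex beside group), with Benjamini-Hochberg adjustment over all genes tested and a threshold of 0.05. CPM uses TMM-scaled totals, and CPM per kb divides it by exon length. The spread between samples was a biological coefficient of variation of 12.8%. P2X shares and the P2rx3 to P2rx2 ratio were compared by exact 2-sided permutation over all relabellings of the 12 samples, without a sex term. Relations with markers used log2 CPM (prior count 2) and 100000 permutations, adjusted over 120 relations. Scripts were tested on simulated data.

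The alternatives were DESeq2 1.42.0, limma-voom (limma 3.58.1), DESeq2-style size factors, other filters, no sex term, a replicate block, subsets of samples and leaving out each sample. The text names all 10 receptors and, from each list, called genes and the gene with the smallest p, and for each receptor the 3 genes nearest by residual correlation. For some marker lists the gene with the smallest p is not reported here. The genes and lists were chosen with earlier results of these data known. Promoter sequences were matched for 7 of the 10 genes and are not shown.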

Additional observations from a re-analysis of the deposited data

How the results depend on the processing

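The number of receptor genes called in iKO against control samples was 0 under every alternative run except with no filter on low counts, where it was 1 (P2rx2). Of all genes, 155 were called as reported, and 294 with DESeq2, 253 with no filter, 235 without the corn-oil controls, 35 with replicates 1 to 4 only, 82 with replicates 5 and 6 only, and 92 (without control replicate 1) to 364 (without iKO replicate 1) when 1 sample was left out. With no filter, 927 genes were called against tamoxifen-injected controls, 349 against corn-oil controls, 16 between the sexes and 270 for the interaction, in place of 222, 24, 9 and 0. Leaving out 1 sample gave 98 to 1459, 3 to 160, 8 to 11 and 0 to 1, the highest of the first 2 without iKO replicate 1. Leaving out control 5 or 6 leaves 1 corn-oil sample, assumed to vary like the other groups.

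P2rx2, P2rx3, P2rx4, P2ry2, P2ry12 and P2ry14 kept their sign under all 23 alternatives. P2rx5 (-0.016), P2rx6 (-0.048) and P2ry1 (0.065) changed sign with replicates 5 and 6 only, and P2rx7 with replicates 1 to 4 only (-0.002) and with these number ranges as a term (-0.003). When 1 sample was left out the values ran from -0.014 to 0.224 (P2rx5), -0.023 to 0.146 (P2rx6), -0.054 to 0.075 (P2rx7), -0.169 to -0.017 (P2ry1), 0.086 to 0.185 (P2ry2) and -0.312 to -0.097 (P2ry14). The P2rx3 to P2rx2 difference was 0.739 without the corn-oil controls, no longer called, and 0.62 to 0.841 with 1 sample left out (called in 3 of 12). Without the corn-oil controls the share differences changed sign for P2rx3 (-0.222 percentage points), P2rx5 (0.281), P2rx6 (0.342) and P2rx7 (0.0588), and without P2rx3 in the sum for P2rx5 (0.934), P2rx6 (0.356) and P2rx7 (0.21). With 1 sample left out they ran from -0.0336 to 0.265 (P2rx4), -0.237 to 0.0986 (P2rx5) and -0.37 to 0.0595 (P2rx7). Nt5e was called under 22 of 23 alternatives, with an adjusted p of 0.0994 by edgeR with replicates 5 and 6 only, and Adora2b under 14 of 23. The causes were not tested.

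The replicate numbers are not stated to pair animals. Deviations of same-numbered samples correlated at 0.22, 0.18, -0.15, 0.07, 0.19 and 0.05, and 3 of 6 iKO samples correlated best with the control of their own number. With a replicate block in place of the sex term 161 genes and 0 receptors were called, and P2rx2 was at -0.628 (adjusted p = 0.076, edgeR). No 2 samples of a group agreed within sampling noise (chi-square per degree of freedom of at least 3.5). Among the 10 receptors the SE of the log2 fold change was largest for P2rx2 (0.166), P2ry14 (0.164) and P2rx5 (0.164). P2rx2 and P2ry14 had 45 to 117 counts per sample and P2rx5 had 115 to 227. The SE did not follow the counts alone, as P2ry12, with 77 to 124 counts, had an SE of 0.114.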
